A study of Homo sapiens with 40 samples.

Results

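Histone chaperones are proteins that escort newly made histones and hand them to DNA. The genes described here were 10 human histone chaperone genes, chosen by name for the known role of their products. The rule used no measured value, but earlier results of these data were known when the genes were chosen. Of the 10 genes, 9 were present among the 22069 genes of the table. They were CHAF1A (ENSG00000167670_at), CHAF1B (ENSG00000159259_at), RBBP4 (ENSG00000162521_at), ASF1A (ENSG00000111875_at), ASF1B (ENSG00000105011_at), NASP (ENSG00000132780_at), DAXX (ENSG00000204209_at), NAP1L1 (ENSG00000187109_at) and HAT1 (ENSG00000128708_at). HIRA (ENSG00000100084_at), a subunit of a complex that deposits the variant histone H3.3, was not analysed here.

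During S phase the cell copies its DNA and must package the new strands, so histones and their chaperones are needed together. CAF-1, the complex of CHAF1A, CHAF1B and RBBP4, deposits histones H3 and H4 on DNA that is being replicated. ASF1A and ASF1B are paralogous chaperones that pass H3-H4 dimers to CAF-1 and HIRA. NASP holds a store of soluble H3 and H4, and HAT1 acetylates new histone H4 before it enters the nucleus. DAXX deposits H3.3 together with ATRX outside replication, and NAP1L1 is a chaperone of H2A-H2B dimers.

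Transcript levels were measured on 40 arrays from 2 established human cell lines. U2OS is an osteosarcoma line, and hTERT-RPE1 is a telomerase-immortalised line from the retinal pigment epithelium. Both were transfected with siRNA pools at 15 nM against CASP8AP2, NPAT or HINFP, which are regulators of histone genes, or with a control siRNA that targets none of them. On days 1 and 2 the groups were control and CASP8AP2 siRNA in each line, with 3 replicates per group, and on day 3 they were control, CASP8AP2, NPAT and HINFP siRNA in each line, with 2 replicates per group. This gave 16 groups. No untransfected cells were used, so every group, controls included, had received siRNA and transfection reagent. According to the methods, duplicates of day 3 shared 1 time of transfection, and each cell type was 1 line, so a difference between U2OS and hTERT-RPE1 cells is one between these lines. The values are of whole cultures, in which a changed share of cells in S phase and a changed transcript level per cell cannot be told apart. The study reports more tumor cells in S phase after loss of CASP8AP2, and an arrest of hTERT-RPE1 cells in early S phase. With NPAT or HINFP siRNA it reports a larger S phase share in most lines screened. The arrays do not measure that share in either line.

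Correlations of replicate arrays (r) were 0.996 to 0.998 in the earlier set and 0.995 to 0.997 on day 3. Precision was limited by how many arrays there were, with a median SE of a log2 difference of 0.09 in the earlier set and 0.11 on day 3. The targeted transcripts were lower with their own siRNA in all 10 comparisons with control, with between 30.1% and 59.1% left. Markers of the labelled cell types were mostly not examined, because 2 of 9 retinal pigment epithelium markers and 2 of 7 osteoblast markers could be matched to the table. RLBP1 and BEST1, markers of retinal pigment epithelium, had group means between 3.55 and 4.41 on the log2 scale in both lines. RUNX2, the osteoblast transcription factor, had higher group means in hTERT-RPE1 cells (8.72 to 9.67) than in U2OS cells (7.34 to 8.25), and IBSP, a bone matrix protein, lay between 3.47 and 4.27. The lines are therefore called by their names and not by a tissue.

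The promoters of CHAF1A, CHAF1B, ASF1A and ASF1B are shown because CHAF1A and CHAF1B were the members called most often with siRNA and ASF1A and ASF1B are paralogs. Each line gives the 250 bases before the start of transcription, read 5′ to 3′ on the strand of the gene, from RefSeq (GRCh38.p14). Capitals mark the CCAAT box (CCAAT on either strand, so that it also appears as ATTGG). CHAF1B holds none, and the box of ASF1A lies after the start, at bases 16 to 20, outside the stretch shown. The positions are chr19:4402390-4402639 (+ strand) for CHAF1A, chr21:36385142-36385391 (+ strand) for CHAF1B, chr6:118893902-118894151 (+ strand) for ASF1A and chr19:14136590-14136839 (− strand) for ASF1B.
CHAF1A: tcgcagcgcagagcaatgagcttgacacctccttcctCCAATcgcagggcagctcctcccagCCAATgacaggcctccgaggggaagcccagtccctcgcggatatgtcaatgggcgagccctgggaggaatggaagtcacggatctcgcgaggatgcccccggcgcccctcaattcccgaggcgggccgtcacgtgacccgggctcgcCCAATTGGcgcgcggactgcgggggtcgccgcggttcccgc
CHAF1B: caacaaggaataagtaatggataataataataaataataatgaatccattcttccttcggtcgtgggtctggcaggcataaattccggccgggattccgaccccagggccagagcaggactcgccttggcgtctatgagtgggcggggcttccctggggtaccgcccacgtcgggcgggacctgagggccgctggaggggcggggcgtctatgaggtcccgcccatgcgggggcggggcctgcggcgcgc
ASF1A: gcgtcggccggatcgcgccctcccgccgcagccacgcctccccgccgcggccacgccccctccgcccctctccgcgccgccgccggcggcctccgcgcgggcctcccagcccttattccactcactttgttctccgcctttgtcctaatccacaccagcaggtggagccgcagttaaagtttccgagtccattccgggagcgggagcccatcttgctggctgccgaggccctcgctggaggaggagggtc
ASF1B: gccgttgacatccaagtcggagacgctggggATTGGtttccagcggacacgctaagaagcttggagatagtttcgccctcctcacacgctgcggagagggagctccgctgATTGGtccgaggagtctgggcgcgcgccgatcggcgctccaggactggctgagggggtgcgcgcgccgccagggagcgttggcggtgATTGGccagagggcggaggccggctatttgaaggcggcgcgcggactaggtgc

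The windows searched ran from 250 bases before the start to 50 bases after it, in 8 of the 9 measured members that had an entry (all but DAXX). A CCAAT box was found in 6 of these 8 (CHAF1A, RBBP4, ASF1A, ASF1B, NASP and HAT1), against 34.6% of all 35116 windows of the table. CHAF1A held matches at 4 positions, and the last 2 of them overlap in the run CCAATTGG. The E2F motifs TTTCCCGC, TTTGGCGC, TTTCGCGC and TTTGCCGC, on either strand and counted as 1 group, were in 0 of the 8 and in 3.31% of all windows. The HINFP motif CGTCCGC was in 0 of the 8 and in 4.27% of all windows. An absent match says only that these letters were not in this window.

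With control siRNA, the sharpest differences between the lines were in ASF1B, CHAF1B and NASP. The question here was how far U2OS and hTERT-RPE1 cells differ in the chaperones before a histone gene regulator is depleted. ASF1B and CHAF1B were lower in U2OS cells and NASP was higher, on each of the 3 days. Called members numbered 6 of 9 on day 1, of which 5 were lower in U2OS cells and 1 was higher. On day 2 they numbered 6, with 4 lower and 2 higher, and on day 3 they numbered 7, with 4 lower and 3 higher. A gene was called when its limma p-value, adjusted over all 22069 genes, was under 0.05. The lines differ in very many genes: the share of all genes called was 48.7% on day 1 (26.0% up and 22.7% down in U2OS cells), 50.8% on day 2 (27.1% and 23.7%) and 43.8% on day 3 (23.3% and 20.5%). The members' counts are to be read against these shares.

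ASF1B, the ASF1 paralog that is tied to proliferation, lay at 10.55, 10.63 and 10.68 in the control arrays of hTERT-RPE1 cells on day 1 and at 9.53, 9.62 and 9.51 in those of U2OS cells. The 2 groups were separated by almost a full log2 unit at their closest arrays. The log2 difference was -1.07 (SE 0.08, limma adjusted p 6.71e-11), or 47.8% of the hTERT-RPE1 level. It was -0.84 on day 2 and -0.69 on day 3 (adjusted p 2.93e-09 and 2.39e-05). ASF1A was lower in U2OS cells as well, by a smaller step: the log2 difference was -0.63 on day 1, -0.39 on day 2 and -0.31 on day 3 (adjusted p 1.26e-06, 0.000429 and 0.0231). The day 3 call of ASF1A was lost without the control replicate 1 of hTERT-RPE1 cells or either control replicate of U2OS cells (adjusted p up to 0.142).

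CHAF1B, the middle subunit of CAF-1, lay at 9.23, 9.28 and 9.36 in hTERT-RPE1 control arrays on day 1 and at 8.27, 8.22 and 8.29 in U2OS control arrays. Every U2OS array was below every hTERT-RPE1 array, and the U2OS level was 49.0% of the hTERT-RPE1 level (log2 difference -1.03, SE 0.05, adjusted p 1.4e-13). The difference was -0.82 on day 2 and -0.68 on day 3 (adjusted p 5.96e-12 and 8.84e-05). CHAF1A, the large subunit, differed by -0.21 on day 1 (adjusted p 0.00494), and its differences of -0.09 on day 2 and -0.17 on day 3 were not called (adjusted p 0.209 and 0.114). These were called lower when arrays were centred on their medians (adjusted p 0.00198 and 0.032) and after cyclic loess (0.0196 and 0.0185). RBBP4, the small subunit, which also serves in other chromatin complexes, differed by -0.17, -0.07 and 0.17 and was called on no day; median centring gave a lower level on days 1 and 2 (adjusted p 0.00671 and 0.0301).

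NASP was the member with the highest level in U2OS cells relative to hTERT-RPE1 cells. Its control arrays lay at 7.84, 7.92 and 7.94 in hTERT-RPE1 cells on day 1 against 8.55, 8.53 and 8.54 in U2OS cells, and on day 3 at 8.07 and 7.98 against 9.10 and 9.01. No U2OS array overlapped the hTERT-RPE1 arrays on any day. The log2 difference was 0.64 on day 1, 0.85 on day 2 and 1.03 on day 3, when the U2OS level was 204% of the hTERT-RPE1 level (SE 0.11, adjusted p 3.81e-06). NAP1L1 was lower in U2OS cells on each day, by -0.50, -0.51 and -0.64 on the log2 scale (adjusted p 5.28e-06, 4.02e-06 and 0.00139). DAXX was level with hTERT-RPE1 cells on day 1 (difference 0.01) and higher in U2OS cells on days 2 and 3 (0.48 and 0.34, adjusted p 0.000479 and 0.00765). HAT1 differed by -0.01 and 0.08 on days 1 and 2 and was higher in U2OS cells on day 3 (0.40, adjusted p 0.0183).

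The day 3 call of DAXX was lost without control replicate 2 of hTERT-RPE1 cells or control replicate 1 of U2OS cells (adjusted p up to 0.0651), and that of HAT1 without control replicate 2 of hTERT-RPE1 cells or either control replicate of U2OS cells (adjusted p up to 0.199). In a fit of only the 4 arrays compared, ASF1A and HAT1 were not called on day 3 (adjusted p 0.0603 and 0.0553), and HAT1 was not called after cyclic loess (0.0926). RefSeq lists 7 pseudogenes named after RBBP4, 3 named after NAP1L1 and 1 named after NASP, and whether probes of these genes also bind their transcripts was not tested. Of 25 S phase genes listed, 12 could be matched. In U2OS control cells 5 of these were lower and 2 higher on day 1, 3 lower and 5 higher on day 2, and 2 lower and 6 higher on day 3. CCNE1, which encodes cyclin E1 and drives entry into S phase, differed by 2.65 on day 1 and 2.77 on day 3 on the log2 scale. The part of S phase genes in the chaperone differences was not tested.

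**Figure D1:**
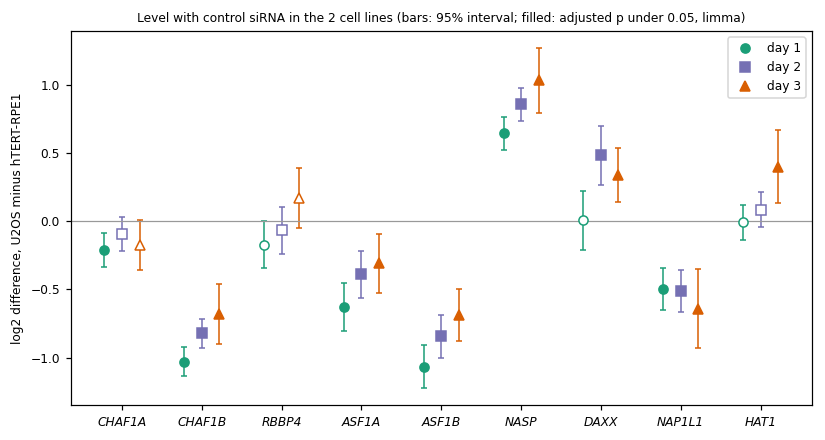
Log2 difference of each chaperone transcript between U2OS and hTERT-RPE1 cells treated with control siRNA (y axis, U2OS minus hTERT-RPE1) for the 9 genes (x axis) on days 1, 2 and 3. Points are differences of group means, bars are 95% intervals and filled points passed an adjusted p of 0.05; ASF1B and CHAF1B lie between -1.07 and -0.68 and NASP between 0.64 and 1.03.

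Between days 1 and 2 the control cells were compared within each line. In hTERT-RPE1 cells 0 of 9 members were called (10.0% of all genes were), with 95% intervals of the members between -0.51 and 0.36. In U2OS cells 1 of 9 was called (13.0% of all genes), which was NASP, at 8.55, 8.53 and 8.54 on day 1 and 8.78, 8.79 and 8.71 on day 2. Of the 9 members 8 had a higher mean on day 2, with a median difference of 0.14 on the log2 scale against -0.007 for all genes. The NASP arrays of day 2 all lay above those of day 1, and the rise was 0.22 on the log2 scale (SE 0.06, limma adjusted p 0.0146). The call was lost without U2OS control replicate 1 or 2 of day 2 (adjusted p up to 0.0623) and with median centring (adjusted p 0.0501). In the same comparison 5 of the 12 S phase genes were called higher (MCM3, RRM1, CDT1, E2F1 and LIG1, by 0.18 to 0.29) and 1 lower (CCNE2, by -0.25), and their part in the rise of NASP was not tested. Levels of day 3 come from a separately scaled set of arrays and were not compared with those of days 1 and 2.

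**Figure D2:**
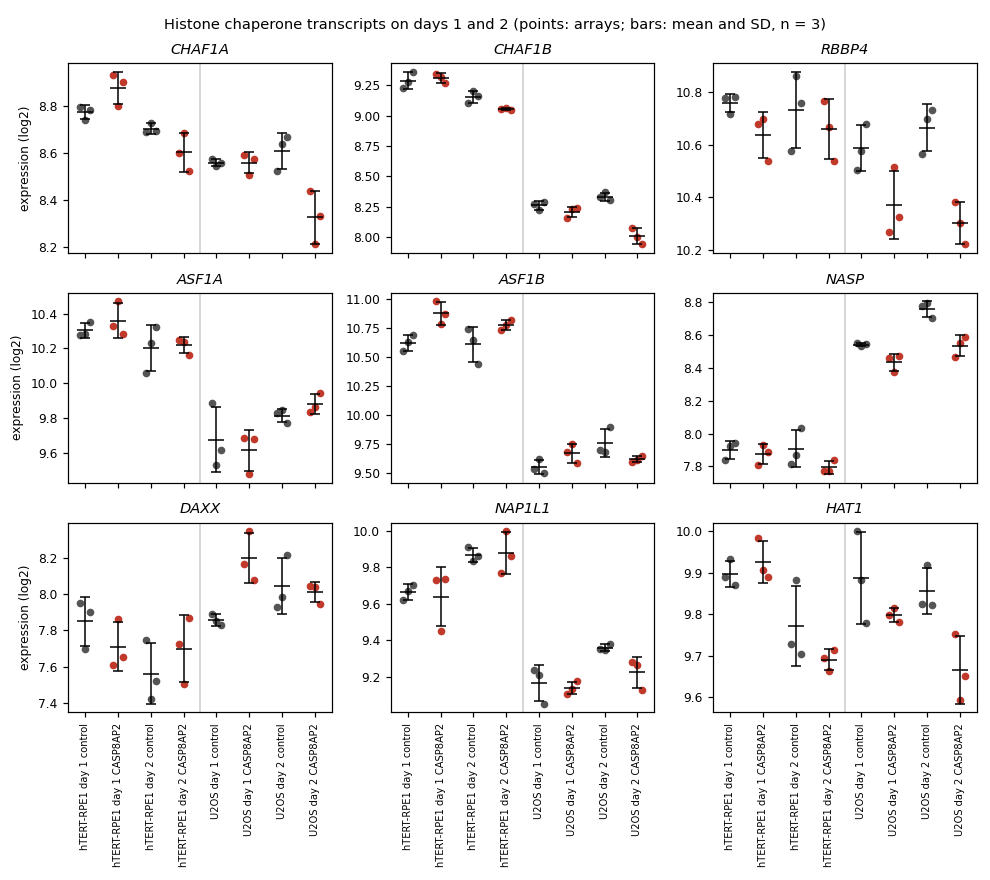
Level of each chaperone transcript (y axis, log2 expression) in the 8 groups of days 1 and 2 (x axis, cell line, day and siRNA), 3 arrays per group. Points are arrays and bars the mean and SD. For CHAF1A, CHAF1B, RBBP4, ASF1B, NASP, NAP1L1 and HAT1 all 3 U2OS arrays with CASP8AP2 siRNA on day 2 sit below their controls. Of these, ASF1B and NAP1L1 were not called, and the share of all genes so separated was not counted.

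CASP8AP2, also called FLASH, is needed for the processing of histone transcripts. With CASP8AP2 siRNA, chaperone transcripts fell in U2OS cells on day 2, and no member was called on day 1 or in hTERT-RPE1 cells. In U2OS cells on day 2, 5 of 9 members fell and 0 rose, against 24.9% of all genes called and 13.1% called lower. These were all 3 subunits of CAF-1 and the histone supply genes NASP and HAT1. The median difference of the 9 members was -0.19 on the log2 scale and that of all genes was -0.01. On day 1 in U2OS cells 0 of 9 members were called (5.87% of all genes). In hTERT-RPE1 cells 0 of 9 were called on day 1 (0.793% of all genes) and 0 of 9 on day 2 (6.40%).

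The CAF-1 subunits moved by similar amounts. CHAF1B lay at 8.33, 8.37 and 8.30 with control siRNA in U2OS cells on day 2 and at 8.07, 8.00 and 7.94 with CASP8AP2 siRNA. Every CASP8AP2 array was below every control array, and 79.7% of the control level was left (log2 difference -0.33, SE 0.05, limma adjusted p 4.02e-05). CHAF1A fell from 8.52, 8.64 and 8.67 to 8.44, 8.21 and 8.33, without overlap, by 0.28 on the log2 scale (SE 0.06, adjusted p 0.00113). RBBP4 fell from 10.57, 10.70 and 10.73 to 10.38, 10.30 and 10.22, also without overlap, which left 77.8% of the control level (log2 difference -0.36, SE 0.08, adjusted p 0.002). These 3 calls held under every alternative in which they were tested and without any 1 of the 6 arrays compared, with adjusted p up to 0.0338; no member moved by 0.5 or more.

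NASP and HAT1 fell by less. NASP lay at 8.78, 8.79 and 8.71 with control siRNA and at 8.47, 8.55 and 8.59 with CASP8AP2 siRNA, which were separate (log2 difference -0.22, SE 0.06, adjusted p 0.00625); it was not called after cyclic loess (adjusted p 0.0711). HAT1 lay at 9.83, 9.92 and 9.82 against 9.75, 9.59 and 9.65, again separate, with a difference of -0.19 (SE 0.06, adjusted p 0.0258). Its call was lost without control replicate 2 or CASP8AP2 replicate 2 or 3 (adjusted p up to 0.124), with only the arrays compared (0.0772), in one fit of all 40 arrays (0.0782) and after cyclic loess (0.192). Of the members not called, ASF1B differed by -0.14 and NAP1L1 by -0.13, while ASF1A (0.07) and DAXX (-0.03) overlapped their controls.

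On day 1 in U2OS cells and on days 1 and 2 in hTERT-RPE1 cells no difference was called. Some were as large as called falls of day 2, such as that of RBBP4 in U2OS cells on day 1 (-0.21). The 95% intervals of the 9 members lay between -0.39 and 0.56 in U2OS cells on day 1, between -0.36 and 0.41 in hTERT-RPE1 cells on day 1 and between -0.24 and 0.35 on day 2. DAXX in U2OS cells on day 1 stood apart, at 8.17, 8.35 and 8.08 with CASP8AP2 siRNA against 7.89, 7.85 and 7.83 with control siRNA. The groups did not overlap, yet the difference of 0.34 (SE 0.10) missed the threshold (adjusted p 0.059); it was called after cyclic loess (0.0448). ASF1B in hTERT-RPE1 cells on day 1 lay at 10.98, 10.78 and 10.87 with CASP8AP2 siRNA and at 10.55, 10.63 and 10.68 with control siRNA, a difference of 0.25 that was not called (adjusted p 0.154).

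Other genes with related tasks moved in U2OS cells on day 2 as well. Of 39 further chaperone and nucleosome assembly genes listed, 4 could be matched to the table, and 3 of these 4 fell. They were RBBP7, a paralog of RBBP4 that works with HAT1 (log2 difference -0.33), ANP32E, which removes H2A.Z from chromatin (-0.38), and BAZ1B, a subunit of chromatin remodelling complexes (-0.24); CHD1, a remodeller that acts in transcribed genes, had a difference of 0.08. None of the 4 was called with CASP8AP2 siRNA in U2OS cells on day 1 or in hTERT-RPE1 cells on day 1, 2 or 3. Of the 12 matched S phase genes, 6 fell and 0 rose in U2OS cells on day 2. These were MCM3, a subunit of the replicative helicase (-0.22), RRM1, a subunit of ribonucleotide reductase (-0.21), the transcription factor E2F1 (-0.32), CCNE1 (-0.23), CCNE2 (-0.60) and POLA1, the catalytic subunit of DNA polymerase alpha (-0.20). In hTERT-RPE1 cells on day 2, MCM3 (-0.22) and CCNE1 (-0.37) were called lower, while no chaperone was. The part of these genes in the fall of the chaperones was not tested.

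On day 3 the response of the chaperones to CASP8AP2 siRNA in U2OS cells was mixed in direction. Of 9 members, 4 were called (18.9% of all genes), 1 higher (7.91% of all genes) and 3 lower (11.0%). CHAF1A rose while CHAF1B, ASF1A and HAT1 fell. CHAF1A lay at 8.44 and 8.34 with CASP8AP2 siRNA against 8.00 and 8.18 with control siRNA, with both CASP8AP2 arrays higher (log2 difference 0.30, SE 0.08, limma adjusted p 0.0233). CHAF1B lay at 7.56 and 7.72 against 8.00 and 7.92, both lower, which left 80.2% of the control level (-0.32, SE 0.10, adjusted p 0.0451). CHAF1B was thus called lower on day 2 and on day 3, and CHAF1A was called lower on day 2 and higher on day 3, in separate sets of arrays.

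ASF1A lay at 8.94 and 8.89 with CASP8AP2 siRNA and at 9.32 and 9.26 with control siRNA in U2OS cells on day 3. Both arrays were well below the controls, and 77.2% of the control level was left (-0.37, SE 0.10, adjusted p 0.0196). HAT1 lay at 9.16 and 9.44 against 9.71 and 9.71, with duplicates that stood further apart than its control arrays but both lay below them (-0.41, SE 0.12, adjusted p 0.0343). RBBP4 (10.47 and 10.64 against 10.78 and 10.78) and ASF1B (8.99 and 9.04 against 9.21 and 9.18) were also below their controls in both arrays but were not called (-0.23 and -0.18, adjusted p 0.154 and 0.192). NASP, DAXX and NAP1L1 overlapped their controls, with differences of 0.04, 0.06 and -0.09. RBBP7 fell by 0.32 and CHD1 rose by 0.27 on the log2 scale, and 0 of the 12 S phase genes were called.

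All 4 calls in U2OS cells on day 3 rest on duplicates. With only the arrays compared none was called (adjusted p 0.123 for CHAF1A, 0.102 for CHAF1B, 0.0526 for ASF1A and 0.083 for HAT1), and CHAF1B, ASF1A and HAT1 were not called after cyclic loess (0.119, 0.0943 and 0.118). Leaving out any 1 of the 4 arrays ended the call of ASF1A (adjusted p up to 0.115), and leaving out control replicate 1 or CASP8AP2 replicate 1 ended that of CHAF1A (up to 0.207). For CHAF1B and HAT1 the call was lost without either control replicate or without CASP8AP2 replicate 1 (up to 0.284 and 0.298).

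In hTERT-RPE1 cells on day 3, CASP8AP2 siRNA was called for 0 of 9 members (6.15% of all genes). The intervals of the members lay between -0.51 and 0.39 on the log2 scale. The nearest was CHAF1B, at 8.33 and 8.37 against 8.60 and 8.68 with control siRNA. Both arrays were lower, and the difference of -0.29 (SE 0.10) missed the threshold (adjusted p 0.121). Of the 12 S phase genes 1 was called lower, CCNE1, at -0.52.

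**Figure D3:**
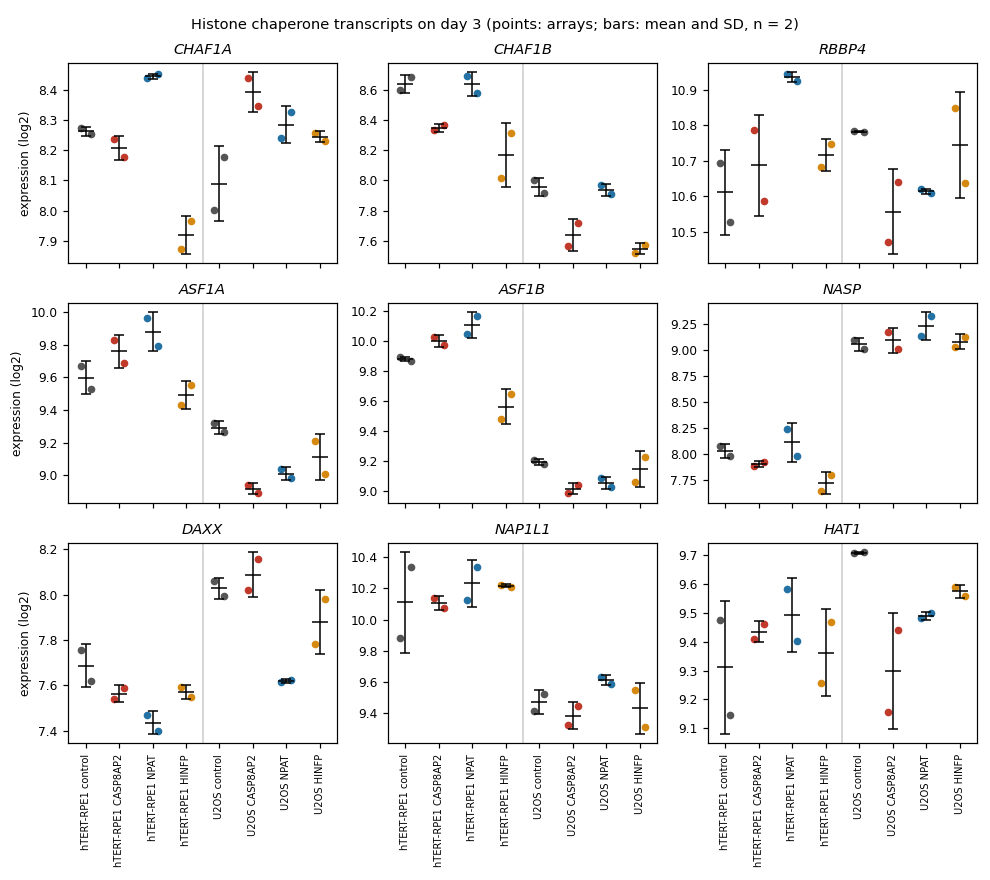
Level of each chaperone transcript (y axis, log2 expression) in the 8 groups of day 3 (x axis, cell line and siRNA), 2 arrays per group. Points are arrays and bars the mean and SD; ASF1A and ASF1B lie lower in all 4 U2OS groups than in any hTERT-RPE1 group, and NASP lies higher.

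HINFP, a transcription factor that binds histone gene promoters, was the pool with called changes in hTERT-RPE1 cells. Of 9 members 2 fell and 0 rose (4.15% of all genes called, 2.01% called lower), and both were CAF-1 subunits. CHAF1B lay at 8.02 and 8.32 with HINFP siRNA against 8.60 and 8.68 with control siRNA, both arrays lower although apart from each other, and 72.1% of the control level was left (log2 difference -0.47, SE 0.10, limma adjusted p 0.0237). CHAF1A lay at 7.88 and 7.97 against 8.27 and 8.25, also without overlap (-0.34, SE 0.08, adjusted p 0.0396). ASF1B (9.48 and 9.64 against 9.89 and 9.87) and NASP (7.64 and 7.79 against 8.07 and 7.98) were below their controls in both arrays but were not called (-0.32 and -0.31, adjusted p 0.064 and 0.138). RBBP4, ASF1A, DAXX, NAP1L1 and HAT1 differed by between -0.12 and 0.11.

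The call of CHAF1A was lost without any 1 of the 4 arrays (adjusted p up to 0.235), with only the arrays compared (0.224) and with median centring (0.0521), and that of CHAF1B without control replicate 2 or HINFP replicate 1 (up to 0.203) and with only the arrays compared (0.198). Of the 12 S phase genes, 4 fell in the same arrays and 0 rose. They were RPA2, a subunit of the protein that coats single-stranded DNA (-0.39), E2F1 (-0.55), CCNE1 (-0.49) and the flap endonuclease gene FEN1 (-0.80). Their part in the change of CHAF1A and CHAF1B was not tested.

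In U2OS cells HINFP siRNA was called for 1 of 9 members, which fell (9.43% of all genes called, 4.84% called lower). It was CHAF1B, at 7.52 and 7.57 against 8.00 and 7.92 with control siRNA. The duplicates were close and both well below the controls, with 75.2% of the control level left (-0.41, SE 0.10, adjusted p 0.0225). The call was lost without any 1 of the 4 arrays (adjusted p up to 0.165) and with only the arrays compared (0.057). CHAF1A did not follow it here, at 8.26 and 8.23 against 8.00 and 8.18, a difference of 0.16 that was not called (adjusted p 0.307). None of the 12 S phase genes was called in U2OS cells with HINFP or NPAT siRNA.

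NPAT is a coactivator of histone gene transcription that acts downstream of cyclin E. Its siRNA was called for 0 of 9 members in hTERT-RPE1 cells (5.04% of all genes), with intervals of the members between -0.45 and 0.55. RBBP4 came nearest, at 10.95 and 10.93 against 10.70 and 10.53, a difference of 0.33 (SE 0.10, adjusted p 0.0911), and ASF1A lay at 9.96 and 9.79 against 9.67 and 9.53 (0.28, adjusted p 0.131). Both lay above their controls without overlap. RRM1, RRM2 and CDC6 were the 3 of 12 S phase genes called, and all 3 rose (0.42, 0.49 and 0.37).

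In U2OS cells NPAT siRNA was called for 1 of 9 members, which fell (8.13% of all genes called, 4.29% called lower). It was DAXX, at 7.61 and 7.63 against 8.06 and 7.99 with control siRNA. The duplicates were nearly equal, and 75.4% of the control level was left (log2 difference -0.41, SE 0.09, adjusted p 0.0163). DAXX in hTERT-RPE1 cells lay at 7.47 and 7.40 with NPAT siRNA against 7.75 and 7.62, lower in both arrays but not called (-0.25, adjusted p 0.137), and the effects in the 2 lines differed by -0.16 (U2OS minus hTERT-RPE1, adjusted p 0.555). The call in U2OS cells was lost without any 1 of the 4 arrays (adjusted p up to 0.131).

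**Figure D4:**
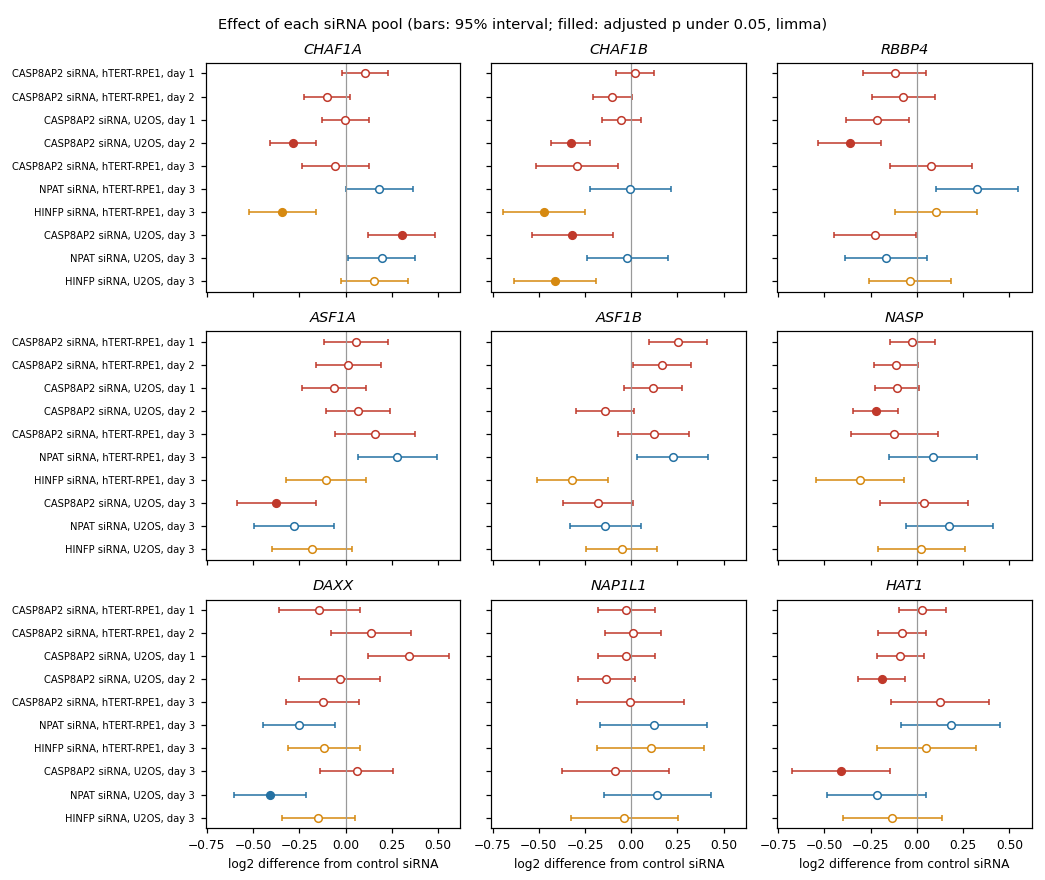
Log2 difference of each chaperone transcript from control siRNA (x axis) in the 10 comparisons of an siRNA pool with control (y axis), coloured by pool. Points are differences of group means, bars are 95% intervals and filled points passed an adjusted p of 0.05; CHAF1B has 4 filled points, all below 0, and CHAF1A has 2 below and 1 above.

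Whether the lines responded differently was tested directly, by subtracting the effect in hTERT-RPE1 cells from the one in U2OS cells. For CASP8AP2 siRNA 0 of 9 members were called on day 1 (0.689% of all genes) and 0 of 9 on day 2 (9.39%). So for none of the 5 members that fell in U2OS cells on day 2 did the difference from hTERT-RPE1 cells pass the threshold in this test. CHAF1B was nearest, at -0.23 (SE 0.07, limma adjusted p 0.0503), followed by ASF1B at -0.31 (adjusted p 0.0763), RBBP4 at -0.29 (0.136) and CHAF1A at -0.18 (0.211). CHAF1B was called with the lowest 25% of genes left out, with limma-trend and without hTERT-RPE1 control replicate 2 or U2OS CASP8AP2 replicate 1 of day 2 (adjusted p down to 0.0347), and ASF1B with limma-trend and without hTERT-RPE1 control replicate 1 (down to 0.0304). The intervals of the members on day 2 lay between -0.53 and 0.30. Of the 4 other chaperone and assembly genes, 3 were called in this test, RBBP7 at -0.34, ANP32E at -0.35 and BAZ1B at -0.24 (adjusted p 0.00312, 0.0326 and 0.0303).

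On day 3, 1 of 9 members was called for each pool, against 9.55% of all genes for CASP8AP2, 3.46% for NPAT and 3.15% for HINFP. The comparisons share the control arrays and are given side by side. ASF1A was called for CASP8AP2, with an effect of 0.16 in hTERT-RPE1 cells and -0.37 in U2OS cells, which differed by -0.53 (SE 0.14, adjusted p 0.0321). It was called for NPAT too, with effects of 0.28 and -0.28, which differed by -0.56 (SE 0.14, adjusted p 0.0487). For HINFP its effects were -0.11 and -0.18 and the difference was -0.08 (adjusted p 0.848). ASF1A was thus higher than control in hTERT-RPE1 cells and lower in U2OS cells, in both arrays, with CASP8AP2 and with NPAT siRNA. Of these effects, only that of CASP8AP2 siRNA in U2OS cells was itself called against control. With 2 arrays per group, separation from control was common. It held for 6 of 9 members in each line with CASP8AP2 siRNA. With NPAT siRNA it held for 5 in hTERT-RPE1 and 8 in U2OS cells. The share of all genes so separated was not counted. In hTERT-RPE1 cells with CASP8AP2 siRNA the closest arrays of ASF1A were at 9.69, against 9.67 with control siRNA. CHAF1A was called for HINFP, with effects of -0.34 in hTERT-RPE1 cells and 0.16 in U2OS cells, which differed by 0.50 (SE 0.12, adjusted p 0.041).

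These 3 calls were close to the threshold. None was called with only the arrays compared (adjusted p 0.068, 0.0772 and 0.123), ASF1A was not called after cyclic loess (0.0834 and 0.0832) and CHAF1A not with median centring (0.0555). Each was also lost in 7 of the 8 fits that left out 1 of the arrays compared. For ASF1A it held only without hTERT-RPE1 control replicate 1, and for CHAF1A only without U2OS control replicate 2. The values stayed between -0.61 and -0.46 for ASF1A with CASP8AP2, between -0.65 and -0.48 with NPAT, and between 0.41 and 0.59 for CHAF1A with HINFP.

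The effect of CASP8AP2 siRNA on day 2 minus that on day 1 was called for 0 of 9 members in hTERT-RPE1 cells (0.652% of all genes) and for 2 of 9 in U2OS cells (7.04%). Both were CAF-1 subunits. CHAF1B had an effect of -0.05 on day 1 and -0.33 on day 2 (difference -0.27, SE 0.07, adjusted p 0.021), and CHAF1A had 0.00 and -0.28 (difference -0.28, SE 0.08, adjusted p 0.0481). With only the arrays compared neither was called (0.0549 and 0.0992), nor after cyclic loess (0.0807 and 0.129), CHAF1B was not called in one fit of all 40 arrays (0.0566), and CHAF1A was not with median centring (0.0501). The call was lost in 5 of 12 fits without 1 array for CHAF1B and in 10 of 12 for CHAF1A (adjusted p up to 0.062 and 0.133). RBBP4, already at -0.21 on day 1 (adjusted p 0.146), differed by -0.15 between the days.

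The pools were also compared with each other on day 3. No control array enters these differences, but the control arrays were part of the fit that set the spread of each gene. In hTERT-RPE1 cells NPAT and HINFP siRNA differed for 3 of 9 members (3.63% of all genes), CASP8AP2 and HINFP siRNA for 1 of 9 (3.81%) and CASP8AP2 and NPAT siRNA for 0 of 9 (2.38%). ASF1B lay at 9.48 and 9.64 with HINFP siRNA, at 10.05 and 10.17 with NPAT siRNA and at 10.03 and 9.98 with CASP8AP2 siRNA. The HINFP arrays were the lowest, and the log2 difference was 0.54 for NPAT minus HINFP (SE 0.09, adjusted p 0.00622) and 0.44 for CASP8AP2 minus HINFP (SE 0.09, adjusted p 0.0141). CHAF1A and CHAF1B also differed between NPAT and HINFP siRNA, by 0.52 and 0.47 (adjusted p 0.00588 and 0.0232). With only the arrays compared these 4 differences were not called (adjusted p between 0.0603 and 0.128). In the same comparison of NPAT with HINFP siRNA, 6 of the 12 S phase genes were higher with NPAT siRNA and 0 were lower, and their part in these differences was not tested.

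In U2OS cells the pools differed for DAXX alone, between CASP8AP2 and NPAT siRNA (1 of 9 members, 3.50% of all genes), with arrays at 8.02 and 8.16 against 7.61 and 7.63. The difference was 0.47 (SE 0.09, adjusted p 0.0141), and it was not called with only the arrays compared (0.138). CASP8AP2 and HINFP siRNA (5.60% of all genes) and NPAT and HINFP siRNA (4.04%) were called for 0 of 9 each. CHAF1B was nearest, at 7.97 and 7.91 with NPAT siRNA against 7.52 and 7.57 with HINFP siRNA (0.39, adjusted p 0.0508). Leaving out 1 of the 4 arrays compared ended the calls between pools in most fits, with adjusted p up to 0.138 and 0.0912 for ASF1B, 0.0805 for CHAF1A, 0.256 for CHAF1B and 0.0877 for DAXX.

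How the members varied together was described over the 16 group means, each centred on its cell line and set of arrays. The means share lines, days and control treatments, so the correlations carry no p. ASF1A and ASF1B had r = 0.72, RBBP4 and HAT1 had r = 0.69, and NASP had r = 0.68 with both CHAF1A and CHAF1B. CHAF1A and CHAF1B had r = 0.56, and CHAF1A and RBBP4 had r = 0.25. DAXX had r between -0.58 (NAP1L1) and 0.01 (ASF1B) with the other members.

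Among 1912 other genes with a paired symbol, the pattern most like that of CHAF1B was that of DTL, a subunit of a ubiquitin ligase that acts in S phase (r = 0.95). HAT1 was most like USP14 (0.93) and ECT2 (0.93), NAP1L1 most like DDB1 (0.91) and BMP4 (0.79), and RBBP4 most like CNBP (0.88) and RPA1 (0.87). CHAF1A was most like SAFB (0.86) and PHIP (0.85), and ASF1A most like CEP55 (0.84) and AGA (0.84). ASF1B was most like LIG1, the DNA ligase of replication (0.80), and CDC6 (0.77), and NASP was most like LIG1 (0.79) and HESX1 (0.77). DAXX was most like CPO (0.79) and KCNAB3 (0.78).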

How the data were processed

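RNA was measured on Affymetrix Human WT 1.1 arrays. Per the methods, the authors processed the arrays in affy, with probes regrouped into 1 set per Ensembl gene, and the submitters' processing notes name RMA. The deposited values are log2 expression per gene and array. Which release of that regrouping, and which genome build, was used is not given in the sources used here. Array means were 6.00 to 6.05 in the set of days 1 and 2 (24 arrays) and 5.85 to 5.88 in that of day 3 (16 arrays), so the sets were taken as scaled separately and not tested against each other. Equal array means hide any change in total RNA. Levels of different probe sets were not compared.

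Groups were taken from the labels. Tests used limma 3.58.1 in R 4.3.3 (lmFit, eBayes, 1 mean per group, two-sided) on each set, with Benjamini-Hochberg adjustment over 22069 genes, without filter. The labels call the replicates biological but do not tie them to separate experiments, so p-values measure the spread between these arrays. The procedure was also run on simulated data with planted differences larger than any siRNA effect on a member. Its outcome is not given here and does not bear on effects as small as theirs. Symbols of genes other than the members came from an ID and symbol pairing in the study's supplement, used here in part. All members were named in the comparisons, with the targeted genes, the matched chaperone, S phase and marker genes, and the 2 genes most alike each member, of which 1 is not reported here; CCNE1 was singled out between the lines after its values were seen. The members and lists were chosen with earlier results of these data known. Alternatives were other normalizations, models and filters and leaving out each array.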

Additional observations from a re-analysis of the deposited data

Results flagged for a closer look

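The effect of an siRNA pool differed between groups in 5 cases by a test of the difference itself (an interaction term in limma). Between the cell lines on day 3, ASF1A differed for CASP8AP2 siRNA by -0.53 on the log2 scale (U2OS minus hTERT-RPE1, adjusted p 0.0321) and for NPAT siRNA by -0.56 (adjusted p 0.0487), and CHAF1A differed for HINFP siRNA by 0.50 (adjusted p 0.041). The ASF1A results share their control arrays. Each pool was called for 1 of 9 members, against 9.55% of all genes for CASP8AP2, 3.46% for NPAT and 3.15% for HINFP siRNA. Between days 1 and 2 in U2OS cells, the effect of CASP8AP2 siRNA differed for CHAF1B by -0.27 (day 2 minus day 1, adjusted p 0.021) and for CHAF1A by -0.28 (adjusted p 0.0481). That was 2 of 9 members, against 7.04% of all genes. None of the 5 cases was called in fits of only the arrays compared. No group held 4 or more arrays, so single arrays were not tested as outliers.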

How the results depend on the processing

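The counts below add the calls of the 9 members over a family of comparisons. For CASP8AP2 siRNA on days 1 and 2 the count was 5, for all pools on day 3 8, for differences between the lines in the effect 0 on days 1 and 2 and 3 on day 3, for differences between days 2, for differences between pools 5, for control cells between the lines 12 on days 1 and 2 and 7 on day 3, and for control cells between days 1. Requiring an absolute log2 difference of at least 0.5 gave 0, 0, 0, 2, 0, 2, 8, 4 and 0 in the same order. One fit of all 40 arrays gave 5, 12, 0, 6, 1, 12, 12, 8 and 1, and fits of only the arrays compared gave 4, 1, 0, 0, 0, 0, 12, 5 and 1. Median centring gave 5, 7, 0, 2, 1, 5, 15, 8 and 0, cyclic loess 4, 5, 0, 2, 0, 7, 14, 7 and 1, leaving out the lowest 25% of genes 6, 8, 1, 3, 2, 7, 12, 7 and 1, and limma-trend with robust eBayes 6, 10, 2, 5, 2, 8, 12, 7 and 2. Leaving out 1 array gave ranges of 4 to 6, 2 to 7, 0 to 1, 0 to 3, 0 to 2, 2 to 6, 12 to 12, 4 to 6 and 0 to 2; on day 3 the lone array left in a group was assumed to vary like the other groups. The share of all genes called under each alternative is not given here, so a changed count cannot be read as particular to the chaperones. The cause of these changes was not tested.

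With the replicate number as a block the counts were 4, 6, 0, 2, 0, 6, 10, 6 and 0. Among the calls ended by the block were those of CHAF1A and CHAF1B between days and of NASP in control cells between days. For the other families, those of day 3 included, only the counts are given here. On days 1 and 2 the deviations of same-numbered arrays correlated between -0.102 and 0.058 (0 of 12 over 0.1, with 2 of 12 arrays most like one of their own number), so the numbers did not pair these arrays. On day 3 the correlations lay between -0.075 and 0.205 (6 of 12 over 0.1, with 8 of 12 arrays most like their own number). With 2 arrays per group both pairs of a comparison give 1 correlation, so these are 6 separate values, and whether the numbers pair the day 3 arrays was not settled by them.

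Of 252 pairs of member and comparison, 43 were called, 23 were called under another setting alone and 186 under none. The largest absolute log2 difference among the 186 was 0.48, and 58 of them changed sign under a setting. Another scaling moved a member by at most 0.16 on the log2 scale. No called difference changed sign under the alternatives run. The protein identity of ASF1A and ASF1B, listed in the design, was not run.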
